A study of Mus musculus with 2 samples.

Results

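Csf3r, Csf2ra, Csf2rb, Csf2rb2, Il3ra, Il6ra and Il1rl1, the receptor genes through which marrow cells sense granulocyte growth factors and interleukins, are described here in 1 control library and 1 library labelled Utx-deleted. The 7 genes were taken as a named list, by symbol, out of 32285 genes counted in both libraries, and all 7 were found once. Both libraries hold Kit+ CD45.2+ mouse bone marrow cells collected 10 weeks after transplantation and profiled by CITE-seq, which reads each cell's RNA molecules, as unique molecular identifiers (UMIs), together with DNA-tagged antibodies bound to its surface. Utx is the common name of the protein made from Kdm6a, which removes methyl groups from lysine 27 of histone H3. The 2 groups share the donor marker, the Kit sort and the time after transplantation, and differ in the label Utx-deleted. The alleles, the agent that deleted Utx, the age of the animals and the number of animals pooled are not given in the sources used here. With 1 library per group no test was possible, and every interval below covers counting error only.

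Csf3r encodes the receptor for granulocyte colony-stimulating factor (G-CSF), the main growth factor of neutrophils, which acts as a pair of identical chains. Csf2ra and Il3ra encode the ligand-binding alpha chains for granulocyte-macrophage colony-stimulating factor (GM-CSF) and interleukin 3, and each signals with the shared beta chain made from Csf2rb. Mice carry a further beta chain gene, Csf2rb2, whose product pairs with the interleukin 3 alpha chain alone. Il6ra encodes the alpha chain for interleukin 6, which signals with gp130 (Il6st), and Il1rl1 encodes ST2, the receptor for interleukin 33, which signals with Il1rap and is known from mast cells and basophils. All but ST2 signal through JAK kinases and STAT factors, while ST2 uses the adaptor MyD88.

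On GRCm38 (mm10) with the GENCODE M21 annotation, Csf3r lies at chr4:126024550-126044440 on the plus strand, Csf2ra at chr19:61223957-61228429 on the minus strand, Il3ra at chr14:14346275-14356011 on the plus strand, Il6ra at chr3:89864059-89913196 on the minus strand and Il1rl1 at chr1:40429570-40465415 on the plus strand. The beta chain genes are neighbours, Csf2rb2 at chr15:78282507-78305721 on the minus strand and Csf2rb at chr15:78325752-78353847 on the plus strand. They are near copies of each other: 18.4% of the 50-base words of the longest Csf2rb transcript also occur in Csf2rb2 transcripts. The counts of both could be affected where reads fall in a shared stretch. None of the 451 such words in the last 500 bases of either transcript is shared. The antisense genes Gm48860 and Gm42809 overlap the start of Il3ra and of Il6ra, and whether the counting used strand is not given in the sources used here.

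Promoters, from 250 bases before to 50 bases after the start of a gene, were found in RefSeq (build GRCm38.p6) for 6 of the 7 genes. Those of 3 genes are shown, because Csf3r and Il6ra were both lower in the least mature cells of the Utx-labelled library and Csf2rb2 was lower along the neutrophil series. The windows are chr4:126024409-126024708 on the plus strand for Csf3r, chr3:89913147-89913446 on the minus strand for Il6ra and chr15:78305672-78305971 on the minus strand for Csf2rb2, each written 5′ to 3′ along its gene. Capitals mark the purine box GAGGAA read on either strand (TTCCTC on the other), a core to which the myeloid factor PU.1 is known to bind.
Csf3r: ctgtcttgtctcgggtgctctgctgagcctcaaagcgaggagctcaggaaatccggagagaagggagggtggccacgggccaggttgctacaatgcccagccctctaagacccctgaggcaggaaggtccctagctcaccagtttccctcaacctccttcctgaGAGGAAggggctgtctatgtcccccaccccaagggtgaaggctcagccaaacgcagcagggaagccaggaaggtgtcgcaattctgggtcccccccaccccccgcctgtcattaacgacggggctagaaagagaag
Il6ra: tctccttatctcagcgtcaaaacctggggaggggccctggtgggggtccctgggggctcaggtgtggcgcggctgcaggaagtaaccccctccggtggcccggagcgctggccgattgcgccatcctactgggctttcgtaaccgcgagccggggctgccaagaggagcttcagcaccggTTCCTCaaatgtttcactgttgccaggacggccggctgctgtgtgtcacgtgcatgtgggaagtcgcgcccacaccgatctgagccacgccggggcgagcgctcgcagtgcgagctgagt
Csf2rb2: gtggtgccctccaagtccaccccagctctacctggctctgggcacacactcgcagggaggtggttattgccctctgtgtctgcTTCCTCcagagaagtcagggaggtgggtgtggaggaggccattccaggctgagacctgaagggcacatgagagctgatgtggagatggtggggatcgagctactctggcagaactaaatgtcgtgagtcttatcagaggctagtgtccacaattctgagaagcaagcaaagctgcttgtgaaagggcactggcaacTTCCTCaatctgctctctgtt
The purine box occurs once in the Csf3r and Il6ra windows and at 2 places in that of Csf2rb2, and 28.3% of the 32851 RefSeq mouse promoters of this length hold it. A loose C/EBP core, TTNNGNAA on either strand (its reverse is TTNCNNAA), has 2 matches in the Csf2rb2 window, 3 in that of Il6ra (2 of them at the same position on opposite strands) and none in that of Csf3r, and is in 40.7% of all promoters. In the Csf2rb2 and Il6ra windows 1 of these matches overlaps a purine box. These matches are descriptions of letters and not of binding.

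Of 7827 and 7883 barcodes, 7020 control and 7157 Utx-labelled cells were kept, with 108718174 and 113178036 gene UMIs and medians of 12402.5 and 11785 UMIs per cell. The libraries shared 17 barcode sequences. Kdm6a itself was at 110 CPM (UMIs per 1000000 gene UMIs) in the control and 103 CPM in the Utx-labelled library. A count of transcript ends does not show whether an internal part of a gene is missing, so this neither checks nor contradicts the label. Cells were placed in stages by the summed UMIs of marker genes that do not include the 7 receptors, and each stage is called by what its markers resemble. The stages were stem-like (279 control and 57 Utx-labelled cells), early progenitor-like (185 and 58), neutrophil progenitor-like (556 and 609), cycling immature neutrophil-like (1954 and 1685), post-mitotic immature neutrophil-like (1560 and 1971), late neutrophil-like (1646 and 1811), monocyte progenitor-like (306 and 658), megakaryocyte-erythroid-like (179 and 53) and basophil- or mast cell-like (79 and 52). Antibody tags, which the gates did not use, followed the stages: the median cell carried 203 and 231 CD117 (Kit) tags in the stem-like stage against 13 and 8 in the late neutrophil-like stage, and 22 and 21 Gr1 tags against 2519 and 2322. Most cells of this Kit sort therefore lay in neutrophil-like stages with few Kit tags and low Kit RNA, at 32.5 and 22.5 CPM in late neutrophil-like cells against 347 and 331 CPM in stem-like cells. The stem-like cells of the 2 libraries were not alike in surface tags: the median CD48 tag count was 690 in the control and 48 in the Utx-labelled library, and that of Sca1 was 26 and 10. Both tags had lower medians in the Utx-labelled library in all 9 stages, for example 60 and 25 CD48 tags and 6 and 3 Sca1 tags in late neutrophil-like cells. A fixed number of tags therefore does not mark the same cells in the 2 libraries. The CD48 gap was widest in stem-like cells, against medians of 776 and 436.5 in early progenitor-like cells. Not every tag was lower in stem-like cells: medians of CD150 were 4 and 8 and those of CD41 13 and 30. Whether the stem-like gate held the same mix of cells in both libraries was not tested. For Csf3r, Csf2rb and Il6ra the stem-like values are also given by CD48 tag.

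Over all kept cells, 6 of the 7 receptors differed by less than 2-fold between the libraries and 1, Csf2rb2, was lower past 2-fold in the Utx-labelled library, where 6.76% of the 13543 genes with at least 100 UMIs passed 2-fold in either direction. Csf3r was at 146 CPM in the control and 150 CPM in the other library, from 15855 and 17026 UMIs. For Csf2ra the levels were 86.8 and 85.6 CPM, for Csf2rb 52.3 and 47.8 CPM, for Il3ra 14.9 in both, and for Il6ra 42.5 and 36.4 CPM. Il1rl1 was at 8.18 and 5.58 CPM, a log2 ratio of -0.55 that became 0.048 with each cell thinned to 2000 UMIs and 0.33 with the stages weighted alike in both libraries. Csf2rb2 was at 4.11 CPM (447 UMIs) and 0.831 CPM (94 UMIs), a log2 ratio of -2.30 (95% interval -2.64 to -1.98). The median log2 ratio of all 13543 genes was -0.12. Scaling by TMM, a trimmed mean of ratios, in place of totals moved Il3ra from -0.0013 to 0.13 and turned the direction of Csf2ra from -0.019 to 0.11 and that of Csf2rb from -0.13 to 0.00093, so differences of this size over all cells have no direction independent of the scaling. The totals hide differences within stages.

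**Figure D1:**
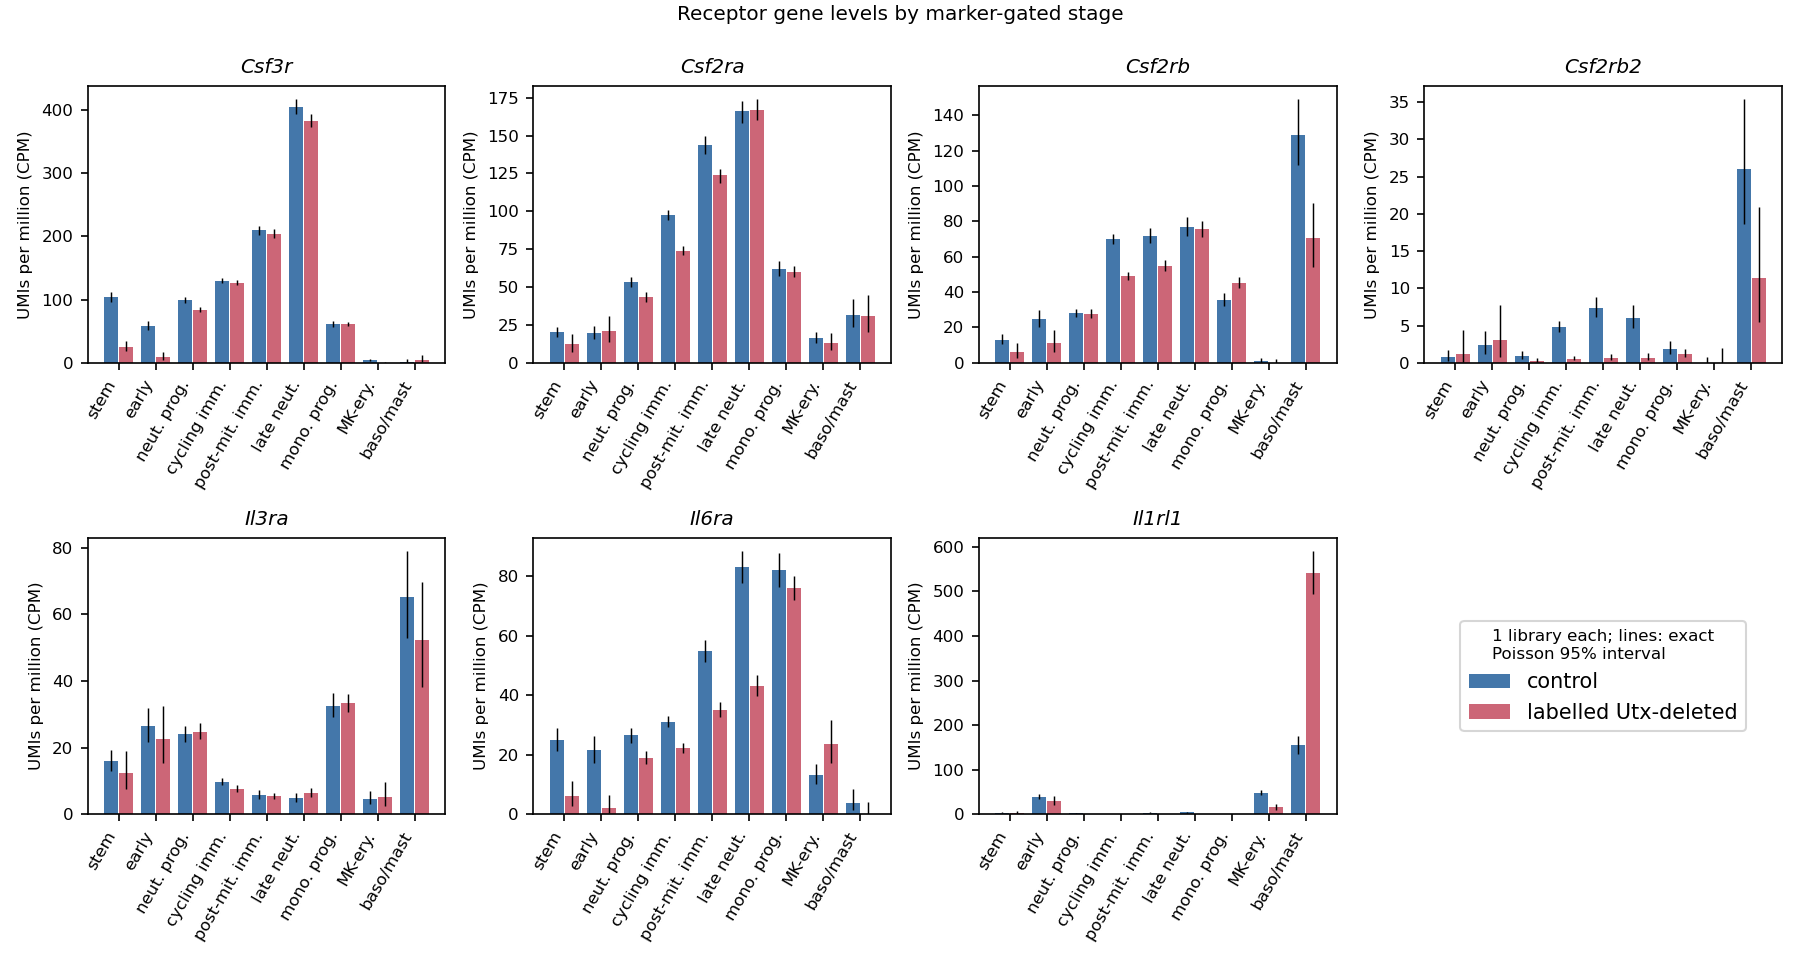
Level of each receptor gene, in CPM (vertical axis), in 9 marker-gated stages (horizontal axis) of the control library (blue) and the library labelled Utx-deleted (red). Bars are sums over the cells of 1 library and lines are exact Poisson 95% intervals, so they show counting error only. Csf3r and Il6ra are lower in red in the stem and early stages, Csf2rb2 along the neutrophil stages, and Il1rl1 is high in basophil- or mast cell-like cells.

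The G-CSF receptor gene Csf3r was 4.06-fold lower in stem-like and 5.55-fold lower in early progenitor-like cells of the Utx-labelled library, and near the control level from the neutrophil progenitor on. In stem-like cells it stood at 104 CPM (698 UMIs, interval 96.8 to 112) in the control and at 25.2 CPM (41 UMIs, interval 18 to 34.1) in the Utx-labelled library, a log2 ratio of -2.02 (-2.55 to -1.60). In early progenitor-like cells the levels were 58.5 CPM (248 UMIs) and 9.83 CPM (13 UMIs), a log2 ratio of -2.47 (-3.50 to -1.77). Neither interval reaches the other library's level in these 2 stages. Neutrophil progenitor-like cells held 99.4 and 84.4 CPM, cycling immature cells 130 and 127 CPM, post-mitotic immature cells 210 and 204 CPM and late neutrophil-like cells 405 and 383 CPM. Both libraries thus had the same order along the neutrophil series, each step above the one before it beyond counting error, and the ratio there was between -0.23 and -0.039 on the log2 scale. Monocyte progenitor-like cells were at 61.6 and 61.7 CPM. In the control, the stem-like level could not be told from that of neutrophil progenitor-like cells, and the early progenitor-like level could not be told from that of monocyte progenitor-like cells, since their intervals overlap.

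A Csf3r UMI was found in 208 of 279 control stem-like cells (74.6%) and in 18 of 57 of the Utx-labelled library (31.6%), at medians of 22770 and 28343 UMIs per cell. With each cell thinned to 2000 UMIs the counts were 60 of 278 (21.6%) and 2 of 57 (3.51%). In cells that should lack the receptor the share was low: 2 of 79 (2.53%) and 2 of 52 (3.85%) of basophil- or mast cell-like cells, at medians of 17909 and 14249.5 UMIs. Megakaryocyte-erythroid-like cells held 21 control UMIs in 10 of 179 cells and no UMI in 53 cells of the Utx-labelled library. This allows a share of cells with a UMI of up to 5.66% (6.72% by the exact interval), and does not limit the share that express the gene. The level was 2.73-fold lower against a floor of 3 UMIs over the stage, and the exact interval of the log2 ratio reached up to -1.02. By kind of cell there were 12 UMIs in 101 control cells against none in 11 with erythroid markers only, and 9 in 78 against none in 42 with megakaryocyte markers, both under the 20 UMIs asked of a ratio here. The share of early progenitor-like cells with a UMI was 42.7% in the control and 8.62% in the other library.

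The Csf3r difference in stem-like cells was seen in each hashtag, each Flt3 group and each CD48 group. Most cells carried 1 of 2 hashtag antibodies, and the labels do not say what these mark, so they are parts of a library and not replicates. In stem-like cells the control hashtags stood at 104 and 106 CPM and those of the Utx-labelled library at 42.2 and 17.7 CPM, without overlap. The ratio was smaller for the first hashtag (-1.23) than for the second (-2.52). The share of all genes whose hashtags separate in this way is not given here. Cells with a UMI of Flt3, a receptor of multipotent progenitors, were 178 of 279 in the control and 17 of 57 in the Utx-labelled library. Among them Csf3r was at 123 and 37.8 CPM, and among cells without Flt3 at 69.8 and 19.1 CPM. Flt3 itself was lower in stem-like cells of the Utx-labelled library, so a Flt3 UMI need not mark the same cells in the 2 libraries. Split at 200 CD48 tags per cell, Csf3r was at 107 CPM in 235 control cells and 48.1 CPM in 20 cells of the Utx-labelled library above that value, a log2 ratio of -1.10 (-1.75 to -0.60). Below it the levels were 87.6 CPM in 44 cells and 12.4 CPM in 37 cells, a log2 ratio of -2.74 (-3.81 to -1.95).

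Stem-like cells were also split by their transcripts of the azurophil granule genes (Elane, Prtn3, Ctsg, Mpo and Ms4a3), which early neutrophil precursors express. With under 3 such UMIs per 10000, Csf3r was at 55.5 CPM in 92 control cells and 8.79 CPM in 34 cells of the Utx-labelled library. From 3 to under 10 the levels were 126 and 24.6 CPM, in 110 and 13 cells. From 10 to under 60 they were 128 and 77.7 CPM, in 77 and 10 cells, a log2 ratio of -0.67 (-1.37 to -0.13). Csf3r was lower in each bin, and the smaller ratio of the last rests on 10 cells. In stem-like and early progenitor-like cells together the ratio was -0.50 (-1.37 to 0.13) from 10 to under 30 such UMIs and -1.53 (-2.33 to -0.93) from 30 to under 60. In the early progenitor-like stage, 190 of the 248 control UMIs lay in 64 cells with a Flt3 UMI, a kind of which the Utx-labelled library held 5 cells. In the 121 and 53 cells without Flt3 the levels were 22.7 and 9.27 CPM, a 2.28-fold lower level (-1.19, interval -2.37 to -0.35). This result also depended on the gate: with all marker thresholds doubled its log2 ratio was -0.74 in place of -2.47.

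**Figure D2:**
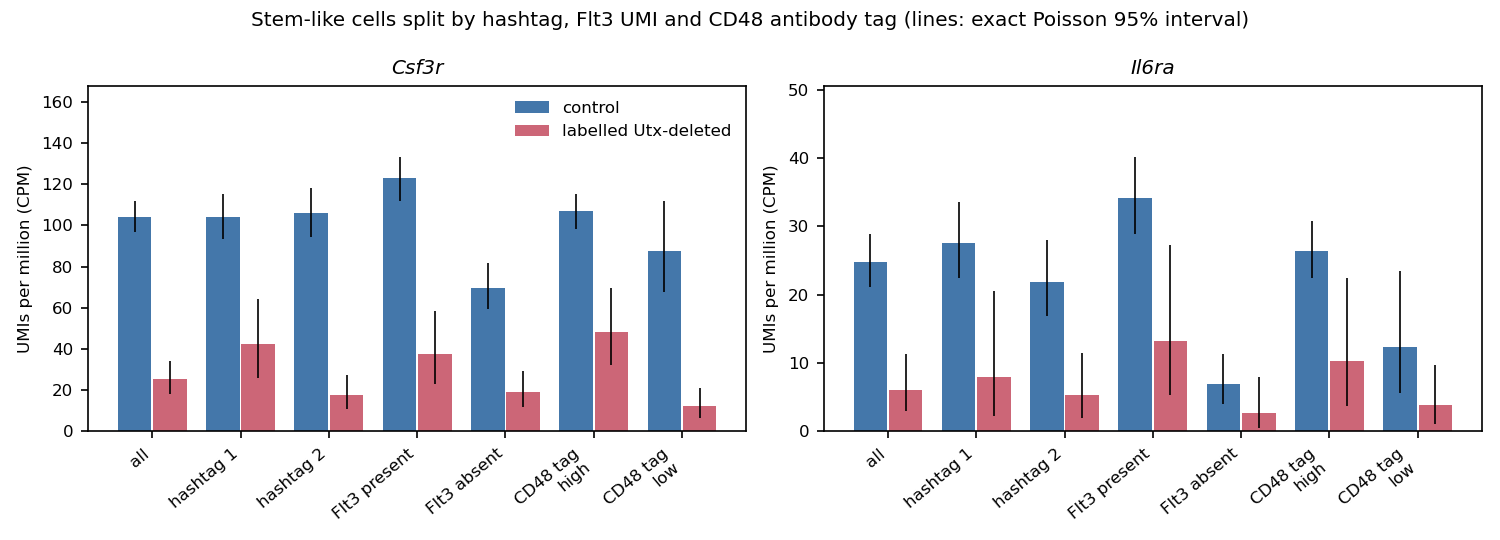
Csf3r (left) and Il6ra (right) in stem-like cells, in CPM (vertical axis), over all stem-like cells and split by hashtag, by the presence of a Flt3 UMI and by CD48 antibody tag at 200 per cell. Blue bars are the control, red bars the library labelled Utx-deleted, and lines are exact Poisson 95% intervals of 1 library each. The red bar is below the blue one in every split, for Csf3r with intervals that do not meet.

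Csf2ra, the GM-CSF alpha chain, increased along the neutrophil series in both libraries and differed by less than 2-fold between them in each stage. It was lower in the Utx-labelled library from neutrophil progenitor-like to post-mitotic immature cells. In the control it stood at 20.2 CPM in stem-like, 19.6 in early progenitor-like, 53.3 in neutrophil progenitor-like, 97.7 in cycling immature, 144 in post-mitotic immature and 166 CPM in late neutrophil-like cells. The corresponding levels in the Utx-labelled library were 12.3, 21.2, 43.4, 74.1, 124 and 167 CPM. Counting error was exceeded in the middle of the series, with log2 ratios of -0.30 (-0.44 to -0.16) in neutrophil progenitor-like, -0.40 (-0.48 to -0.32) in cycling immature and -0.22 (-0.30 to -0.14) in post-mitotic immature cells, and narrowly in stem-like cells, where the Utx-labelled library held 20 UMIs (-0.66, interval -1.48 to -0.036). Late neutrophil-like cells did not differ beyond it (0.012, interval -0.076 to 0.10). Monocyte progenitor-like cells held 62.2 and 60.2 CPM, basophil- or mast cell-like cells 31.9 and 30.7 CPM, and megakaryocyte-erythroid-like cells 16.6 and 13.2 CPM. Stem-like and early progenitor-like levels could not be told apart in either library.

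The shared beta chain gene Csf2rb was highest in basophil- or mast cell-like cells in the control and was lower there, and in immature neutrophil-like cells, in the Utx-labelled library. Basophil- or mast cell-like cells held 129 CPM (199 UMIs) and 70.5 CPM (62 UMIs), a log2 ratio of -0.86 (-1.31 to -0.46). The ratio was -0.37 in the first hashtag and -1.26 in the second. Cycling immature neutrophil-like cells held 69.9 and 49 CPM (-0.51, interval -0.60 to -0.42) and post-mitotic immature cells 71.8 and 55 CPM (-0.38, interval -0.50 to -0.27), with both hashtags lower in each stage. Late neutrophil-like cells were at 76.9 and 75.8 CPM and neutrophil progenitor-like cells at 28.1 and 27.6 CPM. In monocyte progenitor-like cells the direction was the other way, 35.8 CPM in the control and 45.3 CPM in the Utx-labelled library, a log2 ratio of 0.34 (0.16 to 0.52).

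In the least mature cells Csf2rb rested on few UMIs. Stem-like cells held 13 and 6.13 CPM, from 87 and 10 UMIs (-0.96, interval -2.20 to -0.14), and early progenitor-like cells 24.8 and 11.3 CPM, from 105 and 15 UMIs. The stem-like direction was not shared by its parts: the log2 ratio was 0.31 in the first hashtag and -1.87 in the second, and 0.39 (-0.84 to 1.22) among cells with 200 or more CD48 tags, which held all 10 UMIs of the Utx-labelled library. The log2 ratio of the early progenitor-like stage, -1.05 (-2.02 to -0.34), became 0.065 with doubled marker thresholds. Megakaryocyte-erythroid-like cells held 6 UMIs in the control and none in the other library.

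Csf2rb2, the beta chain that serves interleukin 3 alone, was lower by 7.88-fold in cycling immature, 9.98-fold in post-mitotic immature and 8.04-fold in late neutrophil-like cells of the Utx-labelled library. In the control, 161 UMIs in cycling immature, 115 in post-mitotic immature and 67 in late neutrophil-like cells gave 4.79, 7.4 and 6.07 CPM. In the Utx-labelled library, which had similar numbers of these cells, 19, 15 and 10 UMIs gave 0.581, 0.702 and 0.696 CPM. The log2 ratios were -2.98 (-3.81 to -2.35), -3.32 (-4.28 to -2.62) and -3.01 (-4.25 to -2.16). A Csf2rb2 UMI was found in 149 of 1954 and 18 of 1685 cycling immature cells, 7.63% against 1.07%. None of 179 control megakaryocyte-erythroid-like cells had one, at a median of 23537 UMIs per cell. This allows a share of cells with a UMI of up to 1.68% (2.04% by the exact interval), and does not limit the share that express the gene. No cell held more than 4 UMIs of the gene, so the difference did not rest on a few barcodes.

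Each hashtag showed it. The control hashtags were at 5.89 and 3.51 CPM in cycling immature, 9.02 and 5.91 CPM in post-mitotic immature and 8.19 and 4.74 CPM in late neutrophil-like cells. Those of the Utx-labelled library lay between 0.448 and 0.726 CPM in these stages, below every control value. How large a share of all genes separates by hashtag in this way is not given here. Along 7 bins of the late granule markers Retnlg, Mmp8 and Mmp9 the control stayed between 4.51 and 8.38 CPM and the Utx-labelled library between 0 and 1.27 CPM, with no overlap. Neutrophil progenitor-like cells held 17 and 5 UMIs, a log2 ratio of -1.57 (-3.55 to -0.26).

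Outside the neutrophil series the Csf2rb2 difference was smaller. Basophil- or mast cell-like cells held 26 CPM (40 UMIs) and 11.4 CPM (10 UMIs), a log2 ratio of -1.09 (-2.36 to -0.17). Without the cells that carried a UMI of the mast cell genes Cma1 or Mcpt4, 3 and 16 of them, it was -0.93 (-2.38 to 0.06), short of 2-fold. Monocyte progenitor-like cells held 19 and 22 UMIs, 1.88 and 1.2 CPM, and the interval of their ratio spans no difference (-0.66, interval -1.60 to 0.32). Stem-like cells held 5 and 2 UMIs and early progenitor-like cells 10 and 4, too few for a ratio. The share of the gene's UMIs that came from the 3 maturing neutrophil-like stages was 36%, 25.7% and 15% in the control against 20.2%, 16% and 10.6% in the Utx-labelled library, where monocyte progenitor-like cells supplied 23.4% in place of 4.25%.

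Il3ra, the interleukin 3 alpha chain, was high in progenitors, monocyte progenitor-like and basophil- or mast cell-like cells, low in maturing neutrophils, and showed no difference of 2-fold between the libraries in any stage. Basophil- or mast cell-like cells held 65.1 and 52.3 CPM (100 and 46 UMIs), monocyte progenitor-like cells 32.5 and 33.3 CPM, early progenitor-like cells 26.4 and 22.7 CPM, neutrophil progenitor-like cells 24 and 24.8 CPM and stem-like cells 16 and 12.3 CPM. The levels of maturing cells were lower, at 9.76 and 7.74 CPM in cycling immature, 5.86 and 5.47 CPM in post-mitotic immature and 4.8 and 6.47 CPM in late neutrophil-like cells. The last step was downward in the control and upward in the Utx-labelled library, within overlapping intervals in each. The interval of the ratio spanned zero in each stage but the cycling immature one (-0.33, interval -0.58 to -0.093). The interval of the stem-like ratio was -1.15 to 0.31. From the neutrophil progenitor to late neutrophil-like cells Il3ra was thus lower and Csf2ra, the other alpha chain that pairs with Csf2rb, higher in both libraries.

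Il6ra, the interleukin 6 alpha chain, was lower in the Utx-labelled library in the stem-like stage and all later stages of the neutrophil series, and about level in monocyte progenitor-like cells. Stem-like cells held 24.8 CPM (166 UMIs) and 6.13 CPM (10 UMIs), a log2 ratio of -1.89 (-3.10 to -1.10). Early progenitor-like cells held 21.5 CPM (91 UMIs) and 2.27 CPM (3 UMIs), a log2 ratio of -2.84 (-5.55 to -1.65). The latter was -1.05 with doubled and -1.15 with halved marker thresholds and -1.14 in the first hashtag, and the stem-like ratio was -0.80, short of 2-fold, with each cell thinned to 2000 UMIs. Of the 91 control UMIs of the early progenitor-like stage, 81 lay in the 64 cells with a Flt3 UMI, and the 121 and 53 cells without Flt3 held 10 and 2 UMIs, too few for a ratio. Stem-like cells with a Flt3 UMI held 34.2 and 13.2 CPM (150 and 7 UMIs), and those without it 6.98 and 2.72 CPM (16 and 3 UMIs), under 20 UMIs in all. By CD48 tag, Il6ra was at 26.4 and 10.3 CPM in cells with 200 or more (-1.14, interval -2.82 to -0.20) and at 12.3 and 3.82 CPM in the others, from 9 and 4 UMIs. Il6ra was thus lower in each split of the stem-like cells, but with at most 7 UMIs in each part of the Utx-labelled library.

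From the neutrophil progenitor on, the Il6ra gap was widest in the most mature cells. The levels were 26.5 and 19 CPM in neutrophil progenitor-like, 31 and 22.2 CPM in cycling immature, 54.8 and 35.1 CPM in post-mitotic immature and 83 and 43.1 CPM in late neutrophil-like cells. The log2 ratios went from -0.47 (-0.69 to -0.27) and -0.48 (-0.62 to -0.34) to -0.64 (-0.79 to -0.50) and -0.94 (-1.09 to -0.79). In the same order they were -0.24, -0.52, -0.69 and -0.94 in the first hashtag. In the second they were -0.74, -0.53, -0.72 and -0.97, so the gap there did not widen at each step. The hashtags of late neutrophil-like cells stood at 74.9 and 90.2 CPM in the control and at 39 and 46 CPM in the other library, without overlap. Here too the share of all genes that separate by hashtag is not given. In the bins of late granule markers the control level went from 32.1 CPM (under 3 UMIs per 10000) to 99.3 CPM (200 or more), while the Utx-labelled library went from 22 to 44.7 CPM. The log2 ratios by bin were -0.55, -0.47, -0.50, -0.84, -0.96, -0.81 and, in the last, -1.15 (-1.43 to -0.87). Csf3r in the same bins went from 136 to 628 CPM in the control and from 129 to 558 CPM in the Utx-labelled library, so the cells of each bin differed far less in the G-CSF receptor. Il6ra in monocyte progenitor-like cells was at 81.9 and 76 CPM.

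**Figure D3:**
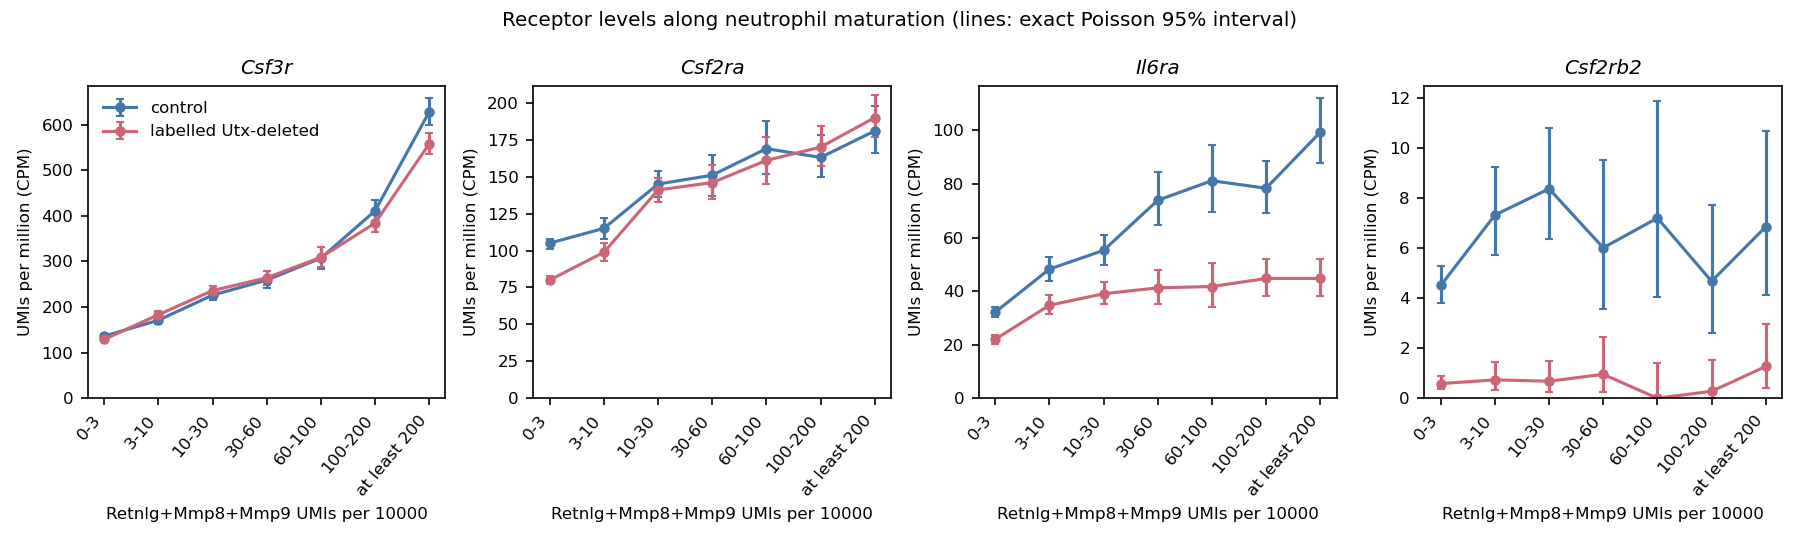
Levels of Csf3r, Csf2ra, Il6ra and Csf2rb2 in CPM (vertical axes) in immature and late neutrophil-like cells binned by their UMIs of Retnlg, Mmp8 and Mmp9 per 10000 (horizontal axes, from least to most mature). Blue is the control, red the library labelled Utx-deleted, and lines are exact Poisson 95% intervals. The 2 libraries run close together for Csf3r, Il6ra separates from 32.1 and 22 CPM to 99.3 and 44.7 CPM, and Csf2rb2 in red is at most 1.27 CPM in every bin.

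Il6ra and Il1rl1 appeared to differ in megakaryocyte-erythroid-like cells, in opposite directions, and neither difference was present within the kinds of cell that make up the stage. Il6ra was at 13.1 CPM in the control and 23.7 CPM in the Utx-labelled library (0.86, interval 0.27 to 1.42), and Il1rl1 at 48.8 and 15.8 CPM (-1.59, interval -2.23 to -1.08). The stage held 78 control cells with megakaryocyte markers past the gate and 101 with erythroid markers only, against 42 and 11 cells in the Utx-labelled library. Il6ra UMIs lay in the cells with megakaryocyte markers, 61 of 64 in the control and 45 of 45 in the other library, and among these cells the log2 ratio was -0.067 (-0.66 to 0.50). All 238 control and 30 other Il1rl1 UMIs lay in the cells with erythroid markers only, where the log2 ratio was 0.14 (-0.50 to 0.65). The level of Il1rl1 in those cells was 83.2 and 89 CPM, and that of Il6ra in cells with megakaryocyte markers 30.3 and 28.8 CPM.

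Il1rl1, the interleukin 33 receptor, was highest in basophil- or mast cell-like cells in both libraries, and was 3.48-fold higher there in the Utx-labelled library, where 376 of 475 UMIs lay in 16 cells with mast cell protease transcripts. The stage held 155 CPM (238 UMIs in 79 cells) in the control and 540 CPM (475 UMIs in 52 cells) in the Utx-labelled library, a log2 ratio of 1.80 (1.58 to 2.03). Cells with a UMI of Cma1 or Mcpt4, which encode chymases of mast cells, were 3 in the control and 16 in the Utx-labelled library. These cells held 34 and 376 Il1rl1 UMIs, or 792 and 1852 CPM, a log2 ratio of 1.19 (0.72 to 1.78) that rests on 3 control cells. In the remaining 76 and 36 cells Il1rl1 was at 137 and 146 CPM, a log2 ratio of 0.11 (-0.26 to 0.45). Cma1 stood at 7.81 and 900 CPM in the stage, Kit at 210 and 936 CPM, and the basophil protease Prss34 at 3732 and 2598 CPM. The single cell with most Il1rl1 held 57 UMIs, and the 20 barcodes with most held 68.2% of all Il1rl1 UMIs in the Utx-labelled library against 20.8% in the control. Without the cells that carry Cma1 or Mcpt4 the call of 2-fold is therefore lost.

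**Figure D4:**
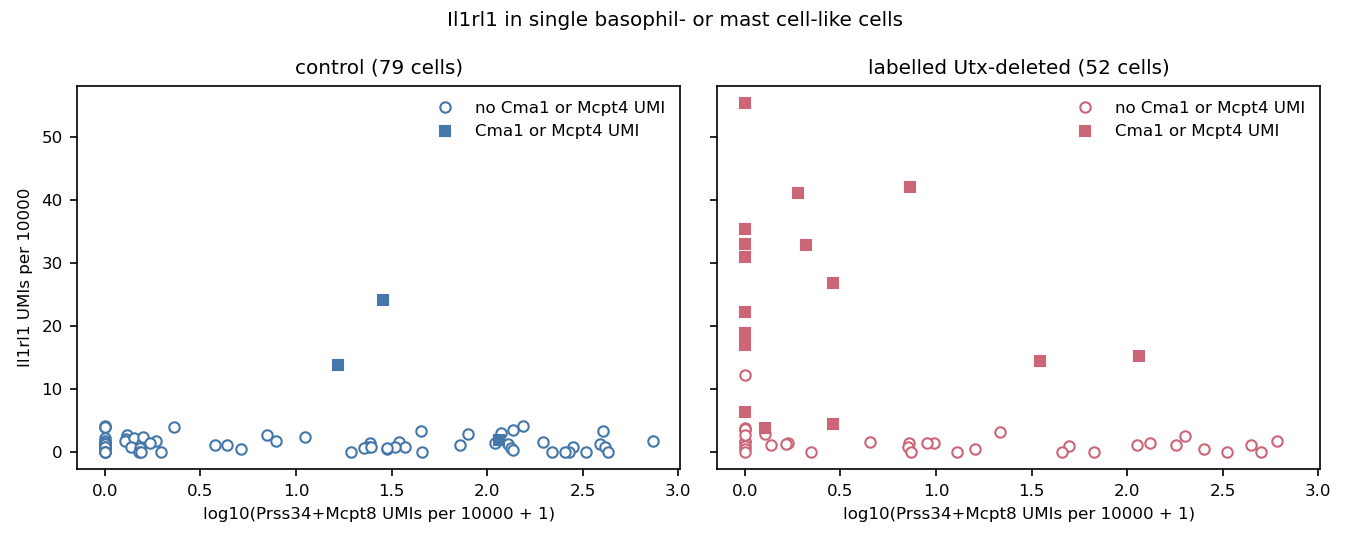
Il1rl1 UMIs per 10000 (vertical axis) in single basophil- or mast cell-like cells against the basophil proteases Prss34 and Mcpt8, as log10 of their UMIs per 10000 plus 1 (horizontal axis), with 79 control cells on the left and, on the right, 52 from the library labelled Utx-deleted. Filled squares are cells with a Cma1 or Mcpt4 UMI, 3 in the control and 16 in the other library, and most of the cells with the highest Il1rl1 levels are among them.

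In the neutrophil series Il1rl1 was scarce, and scarcer in the Utx-labelled library. Control UMIs numbered 34 in neutrophil progenitor-like, 37 in cycling immature, 51 in post-mitotic immature and 48 in late neutrophil-like cells, against 7, 10, 16 and 6 in the Utx-labelled library. The levels were 1.97, 1.1, 3.28 and 4.35 CPM and 0.409, 0.306, 0.748 and 0.418 CPM, and the log2 ratios -2.12, -1.75, -2.07 and -3.19, with intervals below zero. The UMIs lay in 11, 34, 44 and 38 control cells, between 1.74% and 2.82% of each stage, so the 34 UMIs of neutrophil progenitor-like cells came from only 11 cells. Monocyte progenitor-like cells, with medians of 32299 and 27110 UMIs, held 1 control UMI in 306 cells (0.327%) and none in 658 cells of the other library, so the low neutrophil level was not shared by every stage. Early progenitor-like cells held 39.9 and 30.2 CPM (169 and 40 UMIs), with an interval that spans no difference (-0.37, interval -0.93 to 0.11) and ratios of -1.10 and 0.10 in the hashtags. Of these UMIs 166 and 38 lay in cells without Flt3, where the levels were 64.9 and 32 CPM, a log2 ratio of -0.99 (-1.57 to -0.50). Stem-like cells held 26 and 5 UMIs.

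**Figure D5:**
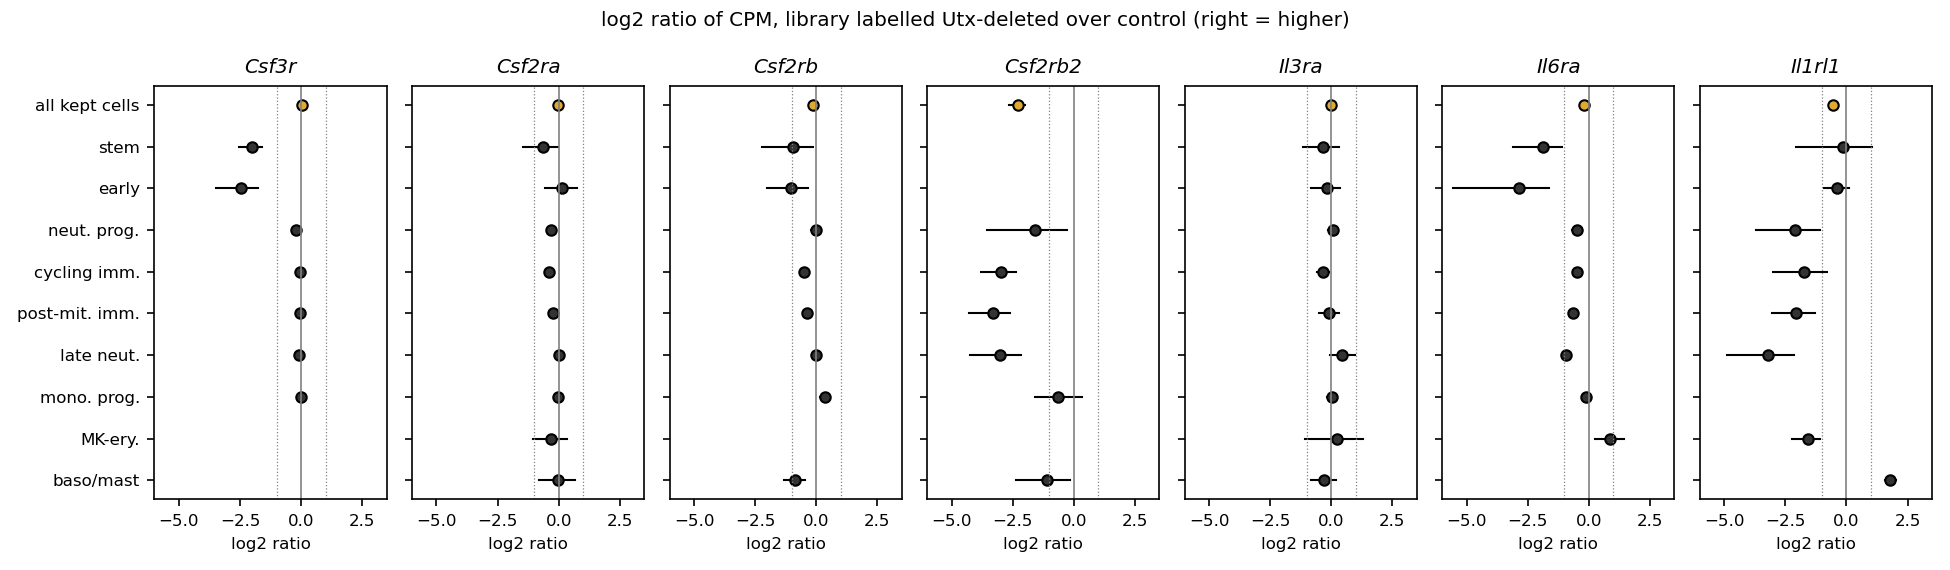
The log2 ratio of CPM in the library labelled Utx-deleted over the control (horizontal axis, right is higher) for each receptor gene, over all kept cells (yellow) and in each of 9 stages (dark points, vertical axis), where the gene had at least 20 UMIs over both libraries and at least 1 in each. Lines are exact conditional binomial 95% intervals and dotted lines mark 2-fold. Csf3r and Il6ra sit left of the 2-fold line in the stem and early stages, Csf2rb2 in the neutrophil stages, and Il1rl1 on either side.

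Counts past 2-fold among the receptors are to be read beside those of all genes with at least 100 UMIs in the stage. The shares of all genes count both directions, and more genes were lower than higher in each stage but the basophil- or mast cell-like one. In stem-like cells 2 of 4 receptors that had this many UMIs passed (Csf3r and Il6ra), where 4.19% of all such genes did. In early progenitor-like cells 2 of 5 passed (Csf3r and Csf2rb), against 2.32%, and Il6ra with 94 UMIs was below the minimum. No receptor of 5 passed in neutrophil progenitor-like cells, against 2.36%, and 1 of 6 (Csf2rb2) in cycling immature and in post-mitotic immature cells, against 3.84% and 3.36%. In late neutrophil-like cells 0 of 5 passed, against 4.44%, with Il6ra just short of the limit, and in monocyte progenitor-like cells 0 of 5, against 2.68%. In megakaryocyte-erythroid-like cells 1 of 3 passed (Il1rl1), against 4.11%. Among basophil- or mast cell-like cells 1 of 3 passed (Il1rl1), against 3.30%. A receptor that misses 100 UMIs in a stage is in none of these counts, and the receptors were chosen as a list and are too few for more than this reading.

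Among the signalling partners, Il1rap and Il6st were higher over all cells in the Utx-labelled library, and the scarce Il5ra had fewer UMIs there. The beta chains Csf2rb and Csf2rb2, described above as partners of the alpha chains, had log2 ratios of -0.13 and -2.30 over all cells. That of Csf2rb had no direction independent of the scaling. Il1rap, the partner of ST2, was at 37.1 and 49 CPM over all cells (0.40, interval 0.34 to 0.46) and at 60.6 and 88.3 CPM in late neutrophil-like cells (0.54, interval 0.41 to 0.68). Il6st, which encodes gp130, was at 10.7 and 15.5 CPM over all cells. In monocyte progenitor-like cells, where it was highest, Il6st was level, at 66.8 and 67.3 CPM. These cells were 4.36% of kept control and 9.19% of kept Utx-labelled cells, and the part of this in the all-cell values was not tested. In stem-like cells, where Il6ra was lower, Il6st was at 15.3 and 19.6 CPM (0.39, interval -0.26 to 0.95). Il5ra, the interleukin 5 alpha chain that shares the beta chain, had 51 and 27 UMIs in all.

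Among 20 other cytokine receptors, 19 had at least 100 UMIs over all cells, 5 of them were lower past 2-fold and none higher (6.76% of all genes passed in either direction), with a median log2 ratio of -0.43 against -0.12 for all genes. Most of all genes past 2-fold were lower too, 738 against 177 higher over all cells and 280 against 80 in stem-like cells. Those lower included Flt3 (23.2 and 4.61 CPM, log2 ratio -2.33), the interleukin 1 receptor Il1r1 (6.55 and 1.71 CPM, -1.94), the erythropoietin receptor Epor (-1.87) and the interleukin 7 receptor Il7r (-1.06). Within the 101 and 11 cells with erythroid markers only, Epor was at 48.2 and 50.5 CPM (0.14, interval -0.76 to 0.80). For Il7r no value within a stage is given here. Cells with B cell markers numbered 64 in the control and 23 in the Utx-labelled library. The part of unequal cell numbers in the Il7r ratio was not tested. In stem-like cells, where 4.19% of all genes passed, 5 of 13 did, all lower: Flt3 (142 and 41.7 CPM), Il1r1 (31 and 3.07 CPM), Il2rg (36.5 and 7.36 CPM), Il4ra (16.8 and 6.13 CPM) and Il17ra (82.5 and 35.6 CPM). The median of these 13 was -0.89 in a stage where the median of all genes was -0.0025. Early progenitor-like cells had 2 of 9 lower (Flt3 and Il2rg), against 2.32% of all genes past 2-fold, and cycling immature cells 3 of 13 (Il1r1, Il1r2 and Il4ra), against 3.84%. Monocyte progenitor-like cells had 4 of 14 lower (Flt3, Il1r1, Il2rg and Il10ra), against 2.68%, and megakaryocyte-erythroid-like cells 2 of 8 (Il17ra and Ifngr1), against 4.11%. The latter stage held 101 control cells with erythroid markers only and 78 with megakaryocyte markers, against 11 and 42 in the Utx-labelled library. Whether Il17ra and Ifngr1 differed within either kind was not tested. Neutrophil progenitor-like (Flt3), post-mitotic immature (Il1r1) and late neutrophil-like cells (Il10ra) had 1 of 12 each, against 2.36%, 3.36% and 4.44%. In basophil- or mast cell-like cells 1 of 4 passed, Kit, which was higher (2.16), against 3.30%, and without the cells carrying Cma1 or Mcpt4 its log2 ratio was 0.87 (0.61 to 1.12), short of 2-fold.

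Genes downstream of the receptors were counted in the same way. None of 15 kinases, STAT factors and adaptors, among them Jak2, Stat3, Stat5a and Myd88, passed 2-fold over all cells or in any of the 9 stages where it had 100 UMIs, which is near the share of all genes (6.76% over all cells and 2.32% to 4.44% by stage), and their median log2 ratio over all cells was -0.14. Of 10 inhibitors 1 passed over all cells, against 6.76% of all genes, the STAT5 target Cish (2.48 and 0.795 CPM, log2 ratio -1.63), with a median of -0.24. None of 10 targets passed over all cells, where their median was -0.26, but the kinase gene Pim1, which cytokines of this family are known to induce, was lower in stem-like cells (229 and 79.1 CPM, -1.52, interval -1.80 to -1.27), as 1 of 9 targets against 4.19% of all genes, and in early progenitor-like cells (143 and 43.8 CPM, -1.69), as 1 of 8 against 2.32%. Bcl2l1 was higher in megakaryocyte-erythroid-like cells (1.05), as 1 of 8 targets against 4.11%. Those were 101 control cells with erythroid markers only and 78 with megakaryocyte markers, against 11 and 42 in the Utx-labelled library. Whether Bcl2l1 differed within either kind was not tested. Among basophil- or mast cell-like cells, Inpp5d was higher (1.35) while Ptpn6 (-1.05) and Cebpb (-1.51) were lower, 2 of 4 inhibitors and 1 of 8 targets against 3.30%. That stage held 3 control cells and 16 Utx-labelled cells with a UMI of Cma1 or Mcpt4. Whether Inpp5d, Ptpn6 and Cebpb differed without those cells was not tested. Of 6 ligand genes 1 had 100 UMIs over all cells, and it did not pass.

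Across the 18 combinations of stage and library, each of which shares its library's depth with 8 others, the level of some genes ran closely with that of a receptor. By Pearson correlation of log2(CPM + 1) over 10923 genes, the closest to Csf3r were the TNF receptor Tnfrsf1a (0.919), Alcam (0.918) and the hexokinase Hk3 (0.909), and to Csf2ra they were Msrb1 (0.982), Kctd20 (0.979) and Sat1 (0.976). Csf2rb ran with Fam107b (0.966), the tetraspanin Cd53 (0.962) and Myo1g (0.943), and Il3ra with the myeloid factor Cebpa (0.961), Nagk (0.954) and Papss2 (0.943). The best likeness was lower for Il6ra, with Rab5if (0.884), Ptger2 (0.861) and Got1 (0.858), and for Csf2rb2, with Gfod1 (0.872), Atp8a2 (0.847) and Prpf18 (0.813). Atp8a2 was, like Csf2rb2, lower over all cells (-2.22). Il1rl1 ran with Csrp3 (0.955), Slc45a3 (0.944) and Scin (0.939). Among the receptors themselves the closest pairs were Csf2ra with Csf3r (0.77) and with Csf2rb (0.74), and the most opposed was Il1rl1 with Il6ra (-0.78).

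The share of cells with a Csf2rb UMI is given for cells with and without an alpha chain UMI, and some of these shares rest on few cells. Of control cycling immature neutrophil-like cells with a Csf2ra UMI, 66.1% had a Csf2rb UMI, against 60.6% of those without, and the former were deeper (medians of 17137 and 14606 UMIs). For Il3ra in control early progenitor-like cells the shares were 54.2% and 21.2%, at 27931.5 and 17758 UMIs. In basophil- or mast cell-like cells Csf2rb was found in 81% of control and 65.4% of Utx-labelled cells. In control neutrophil progenitor-like cells the shares with and without Csf2ra were about level (50.9% and 52.3%). In the Utx-labelled library they ran the other way, on few cells, in 2 stages. These were basophil- or mast cell-like cells (47.4% of 19 cells, against 75.8%) and stem-like cells (0 of 18 cells, against 15.4%). The part of depth in these shares was not tested.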

How the data were processed

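Single-cell RNA and antibody-tag counts of 1 control and 1 Utx-labelled library were used, as UMI counts deposited by the authors; these were made with Cell Ranger 7.1.0 on mm10, per the submitters' processing notes. Barcodes with at least 500 genes and at most 10% mitochondrial UMIs were kept, and barcodes at or above the Scrublet score (scanpy 1.11.5) that bounds the top 6% of a library were left out as doublets, ties included, since the automatic limit marked 0.0267% and 0%. Too few genes or too much mitochondrial RNA removed 349 control and 214 other barcodes, and doublet removal 458 and 512. The genes' identifiers matched GENCODE M21 for 99.6% of genes.

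Stages were gates on summed marker UMIs per 10000: 100 for immature granule genes, 30 for late ones, 3 for cycling genes, 60 for azurophil genes, 3 for stem genes, 10 for early progenitor genes and 8 for monocyte, megakaryocyte, erythroid and basophil or mast cell genes. The markers were fixed lists, and the limits were set after seeing the markers' distributions in both libraries. The 7 receptors and the pathway lists were chosen with earlier results of these data known. Named besides the 7 are pathway genes past 2-fold, the receptors' partners and the 3 genes closest in pattern to each receptor among those with at least 500 UMIs; 1 gene of the lists is not reported here.

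UMIs were summed per stage and library and given as CPM with exact Poisson intervals. Log2 ratios have 1 UMI added and exact conditional binomial intervals, and shares have exact Clopper-Pearson intervals, all at 95% (scipy 1.17.1). Ratios of a stage are given where both libraries together hold at least 20 UMIs; a few alternatives that fall below this are given as values only. The limit beside a count of 0 cells is 3 cells of the total. UMIs remove PCR copies, but the intervals do not cover differences between animals. On simulated counts of all kept cells with 200 genes changed 4-fold, 195 of 195 that entered were recovered and 0 unchanged genes passed 2-fold. For stem-like cells these numbers were 196 of 196 and 6. The simulation drew Poisson counts for both libraries from their pooled profile, and changed only genes of at least 100 UMIs. It held counting error only, so it does not show how the 2-fold call fares with differences between cells, animals or libraries. TMM factors came from edgeR 4.0.16. Alternatives covered cell filters, doublets, hashtags, scaling, thinning, stage weights and gates.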

Additional observations from a re-analysis of the deposited data

Results flagged for a closer look

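For 3 receptors the interval of the ratio lay above zero in 1 stage and below zero in others, and the difference between stages was not tested, since each stage holds 1 library per group.

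Csf2rb had a log2 ratio of 0.34 in monocyte progenitor-like cells, where it was higher in the Utx-labelled library. The ratio was -0.96 in stem-like cells, a direction that their parts did not share. It was -1.05 in early progenitor-like, -0.51 in cycling immature neutrophil-like, -0.38 in post-mitotic immature neutrophil-like and -0.86 in basophil- or mast cell-like cells. Il6ra stood at 0.86 in megakaryocyte-erythroid-like cells, against -1.89 in stem-like, -2.84 in early progenitor-like, -0.47 in neutrophil progenitor-like, -0.48 in cycling immature, -0.64 in post-mitotic immature and -0.94 in late neutrophil-like cells. Among megakaryocyte-marked cells alone it was -0.067. Il1rl1 stood at 1.80 in basophil- or mast cell-like cells, against -2.12 in neutrophil progenitor-like, -1.75 in cycling immature, -2.07 in post-mitotic immature, -3.19 in late neutrophil-like and -1.59 in megakaryocyte-erythroid-like cells. Without cells carrying Cma1 or Mcpt4 the first value was 0.11, and in cells with erythroid markers only the last was 0.14.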

How the results depend on the processing

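No paired analysis was possible because each group holds 1 library, and for the same reason no replicate could be left out. Of 182 alternatives to ratios past 2-fold within stages, 161 moved by less than their interval, 19 moved and 2 changed direction: Csf2rb in early progenitor-like cells with doubled marker thresholds (0.065) and Il1rl1 in megakaryocyte-erythroid-like cells with erythroid markers only (0.14). The share of late neutrophil-like cells changed direction in hashtag 2, to -2.38 percentage points. The causes were not tested. The splits by CD48, Flt3, Cma1 or Mcpt4 and megakaryocyte markers, the limit on granule UMIs and the restriction to named stages were chosen after seeing the data.

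Over all kept cells, Csf3r was 0.24 in hashtag 1, -0.13 in hashtag 2, 0.17 with TMM, 0.12 without abundant genes and -0.11 with equal stage weights. In the same order Csf2ra was 0.057, -0.11, 0.11, 0.053 and -0.21, and -0.11 when thinned to 2000 UMIs per cell. Csf2rb was -0.073 in hashtag 1, 0.00093 with TMM, -0.055 without abundant genes, -0.19 thinned and -0.28 with equal weights. Il3ra was 0.13 with TMM. Il6ra was -0.095 with TMM, -0.15 without abundant genes, -0.46 thinned and -0.51 with equal weights, and Il1rl1 was 0.048 thinned and 0.33 with equal weights.

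Within stages, Csf3r was -1.23 in hashtag 1 and -1.10 with high CD48 in stem-like cells, -0.74 in early progenitor-like cells with doubled thresholds, and -0.61 in erythroid-marked cells (12 and 0 UMIs). Thinning gave -2.30 for Csf2rb2 in cycling immature cells, -0.80 for Il6ra in stem-like cells, -1.65 for Il6ra in early progenitor-like cells, -1.17 for Il1rl1 in post-mitotic immature cells and 2.17 for Il1rl1 in basophil- or mast cell-like cells. It left no value for Csf3r in megakaryocyte-erythroid-like cells or Csf2rb2 in neutrophil progenitor-like cells. Il6ra was -1.03 in stem-like cells without Flt3, and in early progenitor-like cells -1.14 in hashtag 1, -1.05 with doubled and -1.15 with halved thresholds. Il1rl1 was -0.84 and -2.66 by hashtag in megakaryocyte-erythroid-like cells. In basophil- or mast cell-like cells it was 2.16 and 1.49 by hashtag, 1.40 with halved thresholds and 0.11 without Cma1 or Mcpt4 cells. Genes past 2-fold over all kept cells, 915 at first, numbered 359 when thinned, 1651 with a minimum of 20 UMIs and 434 with 500. Depth limits the small stages: in the Utx-labelled library 1 UMI equals 1.14 CPM in basophil- or mast cell-like, 0.756 CPM in early progenitor-like and 0.613 CPM in stem-like cells.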

Other observations

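The receptors came from stages of unequal size in the libraries. Stem-like cells made up 3.97% of kept control cells and 0.796% of kept cells of the Utx-labelled library, early progenitor-like cells 2.64% and 0.81%, and megakaryocyte-erythroid-like cells 2.55% and 0.741%. Monocyte progenitor-like cells were 4.36% and 9.19%. Shares of cells depend on the Kit sort and on 1 library per group, and carry no test. Cells in no gate numbered 103 and 38, and cells past several gates 80 and 107.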
